A study of Homo sapiens with 6 samples.

Results

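The genes described here were 31 members of the p53 pathway, TP53INP1 and 30 others, chosen by name. Most of the 30 are genes that p53 is known to induce or that hold p53 in check. The question was whether the fall of TP53INP1 in cells depleted of MUC1 was shared by other p53 targets. All 31 symbols were found among 28008 genes counted, and 29 of them passed the filter on low counts that left 17026 genes for testing. TP53INP1 was put on the list because it fell in this same contrast, so its change and those of the other members are given as a description, with no p-value. A gene is called below when its Benjamini-Hochberg adjusted p from edgeR's quasi-likelihood test over all 17026 genes was under 0.05.

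The RNA came from H660 cells, the NCI-H660 line of neuroendocrine prostate cancer, which carried a doxycycline-inducible short hairpin against MUC1 in the pLKO-tet-puro lentiviral vector and had been selected in puromycin. By the design text of the series all 6 libraries carried this hairpin. The sample labels gave the DOX group in the titles, but their genotype and treatment entries were the same for all 6 (total RNA and wild-type) and did not name the hairpin or DOX, and their growth medium was not the one in the study's methods. The DOX-negative group of 3 libraries received 0.1% DMSO and the DOX-positive group of 3 libraries received doxycycline at 500 ng/ml, for a week by the methods of the study. No DOX-treated cells without the MUC1 hairpin were among these samples, so doxycycline and loss of MUC1 cannot be told apart. The cultures were described as triplicates without further detail, so p-values measure the spread between these libraries, which may be technical. In bulk RNA, fewer cells of a kind and less RNA per cell cannot be told apart.

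The libraries held 47620696 to 74061121 counts. MUC1, the targeted gene, had 79.6 to 90.2 CPM (counts scaled to the library total, with TMM factors) without DOX and 29.9 to 37.2 with DOX, a fitted log2 fold change of -1.32 ± 0.10 (SE, n = 3 per group; edgeR adjusted p = 0.000173). Summed CPM of 6 neuroendocrine markers was 601 to 675 without DOX and 522 to 613 with DOX, against 2.43 to 3.54 for 6 markers of the androgen receptor lineage over all libraries, and KLK3 had no count in any. Of the 6 neuroendocrine markers, all tested, INSM1, a transcription factor of neuroendocrine cells, was called lower and none was called higher. INSM1 had 103, 119 and 114 CPM without DOX and 89.7, 89.3 and 66.4 with DOX (log2 fold change -0.45 ± 0.11 SE, edgeR adjusted p = 0.039). Of the 6 changes, 4 were below 0 and 2 above. CHGB went up without being called, with a log2 fold change of 0.29 (edgeR adjusted p = 0.17). Its groups did not overlap, at 67.1, 63.9 and 49.2 CPM without DOX and 67.3, 70.7 and 81.9 with DOX. Of 6 fibroblast markers, 3 were tested and 2 were called higher with DOX, COL1A1 by 0.60 and LUM by 1.06 on the log2 scale (edgeR adjusted p = 0.019 and 0.030). The third, COL1A2, went the other way, with a log2 fold change of -0.71 that was not called (edgeR adjusted p = 0.20). It had 14.6, 21.5 and 18.3 CPM without DOX and 13.9, 12.6 and 6.81 with DOX, groups that did not overlap. The summed CPM of the 6 markers was 25.1 to 30.6 without DOX and 23.4 to 27.9 with DOX, and COL3A1 had no count. Of 6 blood cell markers, 2 were tested and CD68 was called higher, by 0.78 on the log2 scale (edgeR adjusted p = 0.019), with summed CPM of 2.46 to 2.81 without DOX, 3.32 to 3.91 with DOX and no count of CD3E. Over all genes tested, 2.91% were called higher and 1.96% lower. The part of these markers in the changes of the p53 pathway genes was not tested.

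The transcription factor p53 is held at a low level by MDM2 and MDM4 and accumulates after DNA damage and other stresses. It then binds response elements, each made of paired copies of a short half-site, and raises genes that arrest the cell cycle, repair DNA, adjust metabolism or start apoptosis. CDKN1A and MDM2 are its best known targets, and several of its targets, GADD45A among them, also answer to other stress-responsive factors. TP53INP1 is a stress-induced nuclear protein that strengthens p53 activity and, in the cytoplasm, binds LC3 family proteins and takes part in autophagy.

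TP53INP1 was the member with the largest fall. Without DOX the 3 libraries held 79.6, 81.1 and 86.5 CPM of it, and with DOX 50.6, 44.2 and 51.0 CPM. Every DOX-positive library lay below every DOX-negative library. The means were 82.4 ± 3.61 and 48.6 ± 3.84 CPM (SD, n = 3 each), a fall of 41.0% that in the fit was a log2 fold change of -0.76 ± 0.08 (SE). Counts behind these values ran from 2430 to 5089 per library. Among all genes tested, 1.56% had a larger fall, and TP53INP1 stood at rank 74 by size of the fall among the 333 genes called lower. With any 1 library left out it was still called lower, with log2 fold changes of -0.80 to -0.69. TP53INP1 was chosen for its fall in these same libraries. Its rank and these calls are a description and no support for the fall.

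TP53INP1 lies on chromosome 8 (chr8:94925972-94949378, minus strand, GRCh38.p14), and all 23407 bases of its span fall inside the span of NDUFAF6, a mitochondrial complex I assembly factor read from the opposite strand. The exons of the pair share 0 bases in GENCODE v29. Whether the deposited counts used strand was not given in the sources used here. NDUFAF6 had 64.0, 64.0 and 75.7 CPM without DOX and 68.5, 64.1 and 71.6 CPM with DOX. These groups overlapped, with a log2 fold change of 0.00 ± 0.09 (SE; edgeR adjusted p = 0.985). Over all libraries its mean count of 4272 was close to the 4040.5 of TP53INP1.

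**Figure D1:**
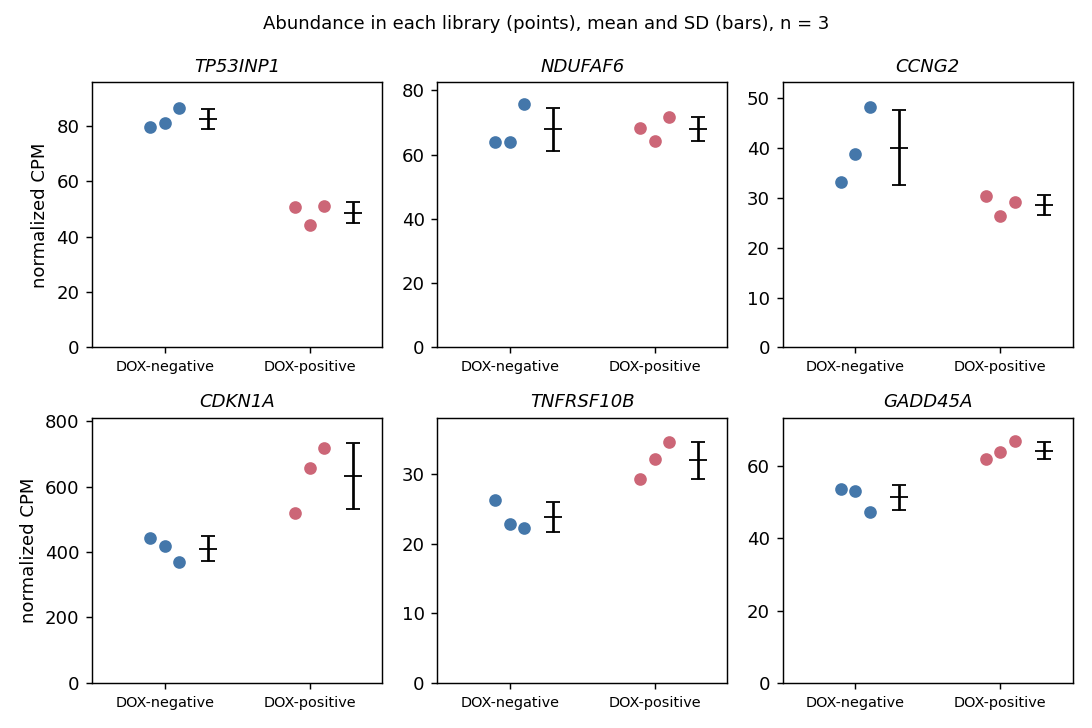
CPM (vertical axis, linear from 0) in each of 3 DOX-negative and 3 DOX-positive libraries for the 5 called p53 pathway genes and for NDUFAF6, whose span holds TP53INP1. Points are libraries and bars are means with SD. TP53INP1 and CCNG2 lie lower with DOX, CDKN1A, TNFRSF10B and GADD45A lie higher, and the groups of NDUFAF6 overlap.

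The fall was not the common direction of the list. Among the 28 other members tested, CCNG2 was called lower, while CDKN1A, GADD45A and TNFRSF10B were called higher and 24 were not called. Over all genes, 4.87% were called, 2.91% higher and 1.96% lower. At an unadjusted p under 0.05 the shares over all genes were 21.1%, 11.6% higher and 9.53% lower. With TP53INP1 counted, 18 of 29 log2 fold changes were above 0 and 11 were below, where 49.9% of all genes tested were below 0. The median of the 29 was 0.03, and 0.06 without TP53INP1, beside 0.00 over all genes tested. Without DOX-positive replicate 3 the median of the 29 was -0.02. Their median absolute change of 0.14 stood beside 0.13 over all genes. The 2 groups of libraries did not overlap for 11 of the 29 members, 7 higher and 4 lower with DOX, where 28.1% of all genes had groups that did not overlap, 14.8% higher and 13.3% lower. Because the contrast was used to choose TP53INP1, nothing is read from these counts about p53.

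**Figure D2:**
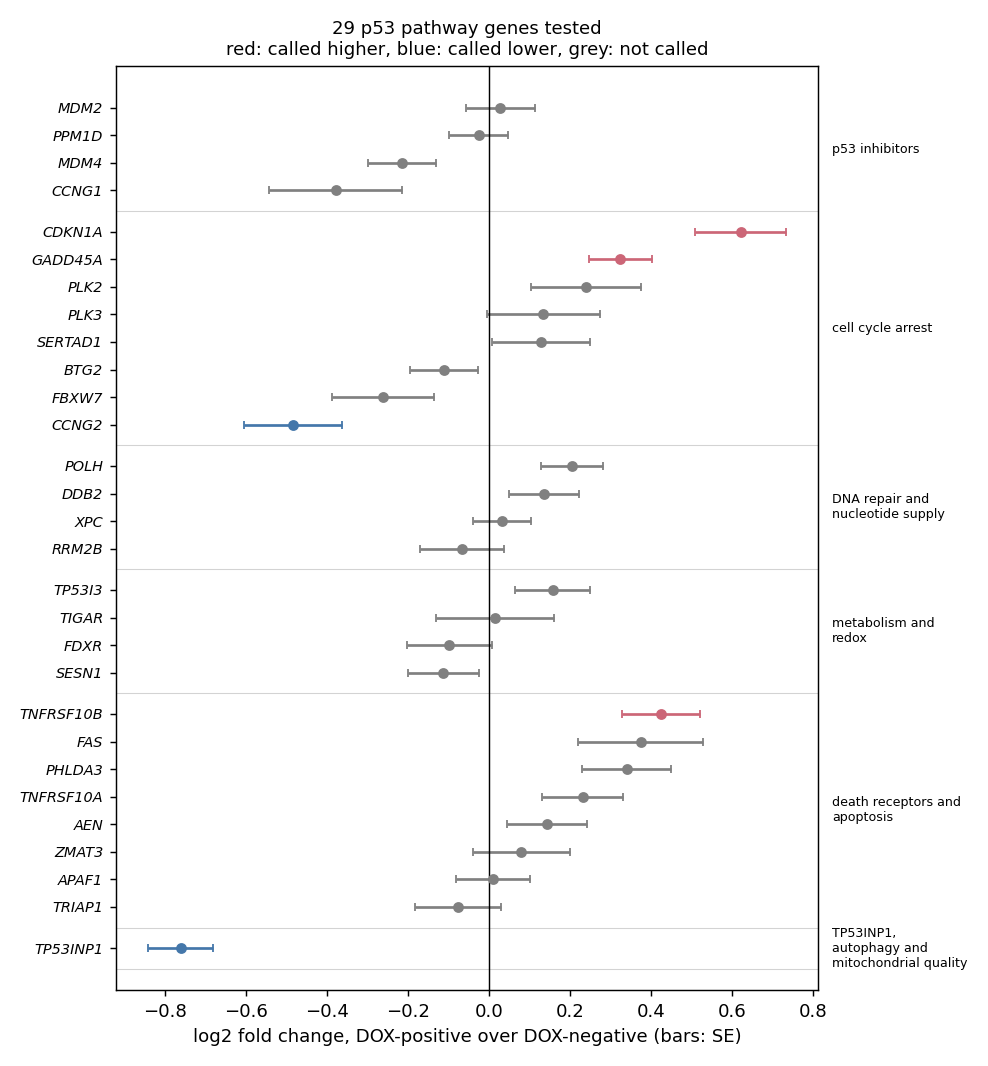
Fitted log2 fold change, DOX-positive over DOX-negative (horizontal axis), of the 29 members tested, grouped by role. Bars are standard errors of the fit with 3 libraries per group, red points were called higher, blue points lower and grey points were not called. TP53INP1 at -0.76 lies farthest below 0 and CDKN1A at 0.62 farthest above.

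Promoter sequence was looked up for the members in the RefSeq windows for GRCh38.p14, which hold 250 bases before and 50 after a start and give 40 windows for 25 of the 31 members. There was no entry for TP53INP1, TNFRSF10A, TNFRSF10B, RRM2B, GADD45A and PHLDA3. A stretch fitting the p53 half-site on either strand was present in 6 of the 40 windows, or 15%, beside 6.63% of all 35116 windows. The 6 windows belonged to AEN, DDB2, FAS, FDXR, PLK2 and SESN1, none of which was called. GGGCGG, the GC box letters, was searched on both strands and was in 34 of 40 member windows (85%) and in 45% of all windows. CCAAT was in 47.5% of member windows and 34.6% of all, TATAAA in 2.5% and 11.5%, TTTGAA in 15% and 15.2%, CANNTG in 57.5% and 68.7%, and TGATGNAA in 2.5% and 3.62%, all on both strands. A match is a description of letters and not a site of binding.

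Of the 5 called members, CDKN1A and CCNG2 had windows, and they are printed because these genes moved in opposite directions. Each held 4 matches to GGGCGG, counted on both strands and shown in capitals, the last 2 of CDKN1A sharing 1 base, and neither held a half-site match in its 300 bases, which says only that those letters are not in this window. The 250 bases before the start are given 5′ to 3′ on the plus strand for both, CDKN1A at chr6:36678464-36678713 and CCNG2 at chr4:77156957-77157206.
CDKN1A: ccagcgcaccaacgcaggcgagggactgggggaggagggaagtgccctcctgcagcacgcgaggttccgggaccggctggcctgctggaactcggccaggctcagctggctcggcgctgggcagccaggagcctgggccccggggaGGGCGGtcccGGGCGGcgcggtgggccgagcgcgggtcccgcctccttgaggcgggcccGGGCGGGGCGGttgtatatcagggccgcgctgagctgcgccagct
CCNG2: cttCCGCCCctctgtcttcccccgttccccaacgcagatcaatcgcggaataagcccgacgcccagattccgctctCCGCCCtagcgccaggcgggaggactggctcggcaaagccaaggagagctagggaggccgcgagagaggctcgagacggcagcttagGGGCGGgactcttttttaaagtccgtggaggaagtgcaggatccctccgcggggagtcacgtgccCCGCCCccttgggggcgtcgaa

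The half-site matches are printed with their surroundings, because they are the matches found in the 40 member windows. The capitals mark the match. DDB2, at chr11:47214959-47215003 on the plus strand, held 2 matches with 1 base between them, beginning at base 6 after the start. The matches of the other genes began before their starts, by 132 bases in PLK2 (chr5:58460189-58460238, minus strand), 122 in FAS (chr10:88991289-88991338, plus strand), 49 in SESN1 (chr6:109009008-109009057, minus strand), 34 in AEN (chr15:88621286-88621335, plus strand) and 11 in FDXR (chr17:74872976-74873025, minus strand).
DDB2: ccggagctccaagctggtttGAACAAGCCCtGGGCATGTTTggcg
PLK2: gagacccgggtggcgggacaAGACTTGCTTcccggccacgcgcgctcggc
FAS: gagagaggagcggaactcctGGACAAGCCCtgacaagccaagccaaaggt
SESN1: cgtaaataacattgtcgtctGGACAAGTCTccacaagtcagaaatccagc
AEN: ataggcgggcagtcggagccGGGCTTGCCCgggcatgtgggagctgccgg
FDXR: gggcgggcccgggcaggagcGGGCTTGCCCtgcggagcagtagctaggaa

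Of the 4 members that restrain p53, none was called by edgeR, DESeq2 or limma-voom, and 3 had log2 fold changes below 0, beside 49.9% of all genes. At an unadjusted p under 0.05 in edgeR, 2 were lower, beside 9.53% of all genes. MDM2, the ubiquitin ligase that p53 induces and that degrades it, had 191, 191 and 200 CPM without DOX and 200, 176 and 218 with DOX. The DOX-positive libraries lay on both sides of the DOX-negative ones, and the log2 fold change was 0.03 ± 0.08 (SE). MDM4, which blocks the activation domain of p53, had 121, 122 and 138 CPM without DOX and 116, 99.3 and 113 with DOX. All 3 DOX-positive libraries were lower, by -0.21 ± 0.08 (SE) on the log2 scale, and the gene was not called. PPM1D, a phosphatase that turns off damage signaling, held 47.6 to 51.7 CPM over all 6 libraries, with a log2 fold change of -0.02 ± 0.07 (SE). CCNG1, a cyclin that brings a phosphatase to MDM2, had 32.2, 36.9 and 49.1 CPM without DOX and 33.8, 24.1 and 32.8 with DOX. These groups overlapped, and CCNG1 had the largest SE of all members, 0.16 on a log2 fold change of -0.38.

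Of the 8 members tied to cell cycle arrest, 2 were called higher and 1 lower, beside 2.91% and 1.96% of all genes. CDKN1A, the p21 inhibitor of cyclin-dependent kinases (chr6:36676463-36687332), had 445, 418 and 370 CPM without DOX and 521, 659 and 717 CPM with DOX. All DOX-positive libraries lay above all DOX-negative libraries, and the rise was 53.8%, or 0.62 ± 0.11 (SE) on the log2 scale. The call of CDKN1A was lost without DOX-negative replicate 2, DOX-negative replicate 3 or DOX-positive replicate 2, with log2 fold changes of 0.52 to 0.74 over the 6 fits that left out 1 library. GADD45A, a stress protein that binds CDKN1A and PCNA (chr1:67685201-67688334), had 53.6, 53.1 and 47.2 CPM without DOX and 62.0, 63.8 and 66.9 CPM with DOX. Its groups did not overlap, and it rose by 25.3%, or 0.33 ± 0.08 (SE) on the log2 scale. The call of GADD45A remained only without DOX-positive replicate 1 or DOX-positive replicate 2, over changes of 0.26 to 0.36 with 1 library left out.

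CCNG2, an atypical cyclin that slows the cell cycle (chr4:77157207-77170060), was the other member called lower. It had 33.3, 38.8 and 48.2 CPM without DOX and 30.3, 26.4 and 29.1 CPM with DOX. The groups did not overlap, but DOX-negative replicate 1 was nearer to DOX-positive replicate 1 than to DOX-negative replicate 3. The fall was 28.5%, or -0.48 ± 0.12 (SE) on the log2 scale. The call was kept without DOX-negative replicate 1 or DOX-positive replicate 1 and was lost when any other library was left out, with changes of -0.60 to -0.34. DOX-negative replicate 3 was the highest library for both CCNG2 and CCNG1.

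The 5 other arrest genes were not called and their groups overlapped. BTG2, an antiproliferative factor, had 210, 222 and 188 CPM without DOX and 178, 192 and 204 with DOX, a log2 fold change of -0.11 ± 0.08 (SE). FBXW7, the ubiquitin ligase subunit that targets cyclin E and MYC, had 33.4, 40.2 and 38.0 CPM without DOX and 37.9, 28.6 and 26.7 with DOX. Its DOX-positive replicate 1 stood with the DOX-negative libraries. FBXW7 was called lower only when that library was left out, at -0.43 in place of -0.26. The stress kinases PLK2 and PLK3 and the CDK4-binding factor SERTAD1 had 2.58 to 3.57, 3.53 to 4.80 and 4.43 to 5.47 CPM over all libraries, with log2 fold changes of 0.24, 0.13 and 0.13 with SE of 0.14, 0.14 and 0.12.

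No member of DNA repair and nucleotide supply was called among 4 tested, by edgeR, DESeq2 or limma-voom, and 1 was higher at an unadjusted p under 0.05 in edgeR, beside 11.6% of all genes. POLH, the polymerase that copies past ultraviolet lesions, had 32.5, 31.1 and 33.2 CPM without DOX and 38.4, 36.5 and 36.6 with DOX. Its groups did not overlap, with a log2 fold change of 0.21 ± 0.08 (SE). The damage sensor DDB2, whose promoter window holds the adjacent half-site matches shown above, had 28.9, 26.3 and 27.1 CPM without DOX and 29.8, 32.6 and 28.0 with DOX. These overlapped, at 0.14 ± 0.09 (SE). XPC, which recognizes distorted DNA, ranged from 79.3 to 87.5 CPM and changed by 0.03 ± 0.07 (SE) on the log2 scale. RRM2B, the ribonucleotide reductase subunit that p53 induces, ranged from 52.0 to 70.3 CPM and changed by -0.07 ± 0.10 (SE).

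No member of metabolism and redox was called among 4 tested by edgeR, DESeq2 or limma-voom, and 0 had an unadjusted p under 0.05 in edgeR. SESN1, a sestrin that restrains mTORC1, had 18.2, 18.2 and 19.4 CPM without DOX and 18.1, 15.8 and 17.6 with DOX. All DOX-positive values were lower, DOX-positive replicate 1 by a small margin, and the log2 fold change was -0.11 ± 0.09 (SE). The groups of the other 3 overlapped, at 3.95 to 5.70 CPM for TIGAR, 11.1 to 14.4 for FDXR and 22.3 to 29.2 for TP53I3. TIGAR, a phosphatase that lowers glycolytic flux, changed by 0.02 ± 0.15 (SE), FDXR, a mitochondrial electron transfer enzyme, by -0.10 ± 0.10 (SE), and TP53I3, a quinone oxidoreductase, by 0.16 ± 0.09 (SE) on the log2 scale.

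Of the 9 members that act in death receptor signaling and apoptosis, 8 were tested, 1 was called higher and 7 had log2 fold changes above 0. Over all genes tested, 2.91% were called higher, 49.9% had changes below 0 and 14.8% had groups that did not overlap and were higher. TNFRSF10B, the DR5 receptor for TRAIL (chr8:23020133-23069031), had 26.3, 22.9 and 22.2 CPM without DOX and 29.3, 32.1 and 34.5 CPM with DOX. Its groups did not overlap, and it rose by 34.3%, or 0.43 ± 0.10 (SE) on the log2 scale. The call of TNFRSF10B was lost without DOX-negative replicate 2, DOX-negative replicate 3 or DOX-positive replicate 3, over changes of 0.37 to 0.50 with 1 library left out. TNFRSF10A, the other TRAIL receptor that carries a death domain, had 7.90, 6.98 and 7.27 CPM without DOX and 8.30, 8.82 and 8.92 with DOX, a log2 fold change of 0.23 ± 0.10 (SE). FAS, the receptor for FAS ligand, had 1.61, 1.60 and 1.66 CPM without DOX and 2.34, 1.82 and 2.13 with DOX, a log2 fold change of 0.38 ± 0.15 (SE). Neither was called, although in both every DOX-positive library lay above every DOX-negative one.

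PHLDA3, a repressor of AKT, had 14.4, 13.9 and 12.7 CPM without DOX and 14.8, 19.4 and 17.8 with DOX. The groups did not overlap, and the log2 fold change of 0.34 ± 0.11 (SE) was not called. PHLDA3 was called higher when DOX-positive replicate 1 was left out, at 0.44. The apoptosome subunit APAF1 changed by 0.01 ± 0.09 (SE), the nuclease AEN by 0.14 ± 0.10 (SE), the apoptosis inhibitor TRIAP1 by -0.08 ± 0.11 (SE) and the RNA-binding protein ZMAT3 by 0.08 ± 0.12 (SE) on the log2 scale. The groups of these 4 overlapped, at 56.6 to 71.0 CPM for APAF1, 13.4 to 17.3 for AEN, 11.0 to 14.5 for TRIAP1 and 17.3 to 23.7 for ZMAT3. EDA2R, a receptor of the same family as FAS, had no count in any of the 6 libraries, and SPATA18, which takes part in mitochondrial quality control, had a mean of 3 counts per library. Neither could be tested.

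**Figure D3:**
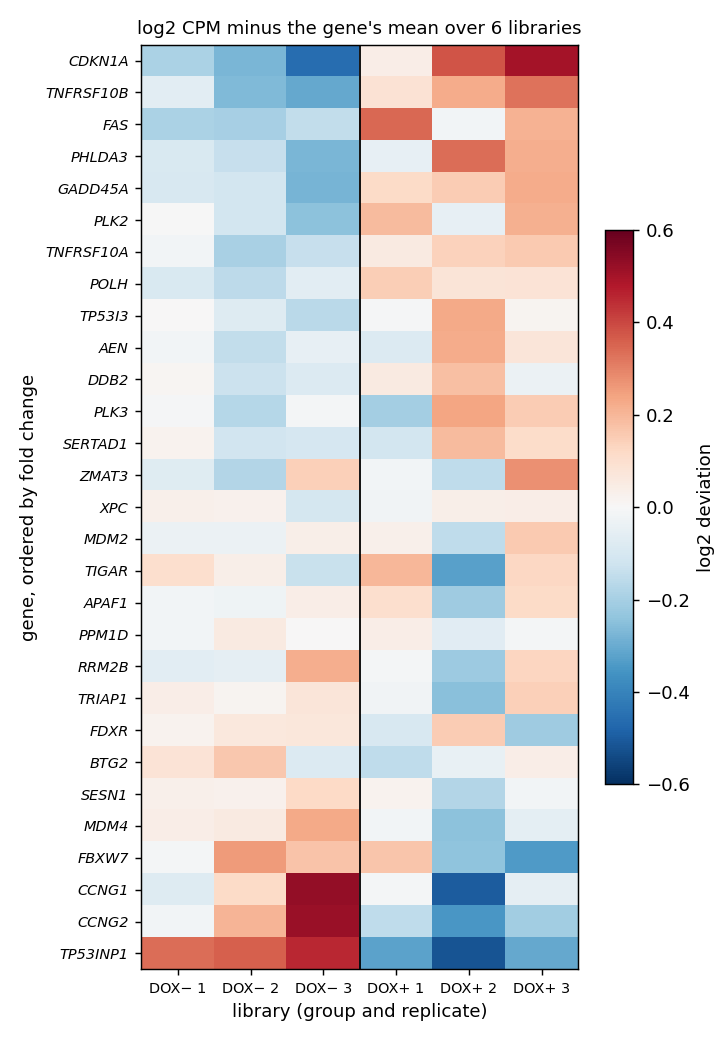
Heat map of the log2 deviation of each tested member (rows, ordered by fold change) from its mean over the 6 libraries (columns, DOX-negative then DOX-positive). Red is above the mean and blue is below it. TP53INP1 runs from 0.33 to 0.45 above its mean in the DOX-negative libraries and from 0.31 to 0.52 below it in the DOX-positive ones.

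The highest and lowest values of the members were spread unevenly over the libraries. DOX-positive replicate 2 was the highest or the lowest library for 18 of 29 members, 7 times highest and 11 times lowest, while DOX-negative replicate 1 was neither for any. The same count was not made over all genes, so it is not read as a trait of the members. DOX-positive replicate 2 also had the largest share of counts in RN7SK, a small nuclear RNA, at 7.79% against 5.83% to 6.85% in the other libraries. The part of that share in the members' values was not tested. The median deviation of the members was -0.05 to -0.01 in the 3 DOX-negative libraries and -0.01, -0.05 and 0.11 in DOX-positive replicates 1, 2 and 3, so that replicate 3 stood highest.

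Levels between genes were compared in TPM, the deposited values that are scaled to transcript length. In each library 25.7% to 34.5% of all TPM lay in a single small RNA, RN7SK or SNORD3A, so the values of other genes are low and are read only in order. CDKN1A was the highest member without DOX at 88.1 ± 18.1 TPM (SD, n = 3), followed by BTG2 at 43.1 ± 9.04, GADD45A at 22.7 ± 4.34, MDM2 at 13.7 ± 1.44 and XPC at 12.0 ± 2.11 TPM. MDM2 and XPC did not differ beyond their spread. These 5 were at 10 TPM or more, 20 members were between 1 and 10 TPM, 4 were below 1 TPM, down to FAS at 0.207 ± 0.023, and SPATA18 and EDA2R were at 0.1 TPM or less. TP53INP1 stood at rank 8 of the 31 without DOX, at 7.83 ± 0.75 TPM, and had 4.79 ± 1.27 TPM with DOX.

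**Figure D4:**
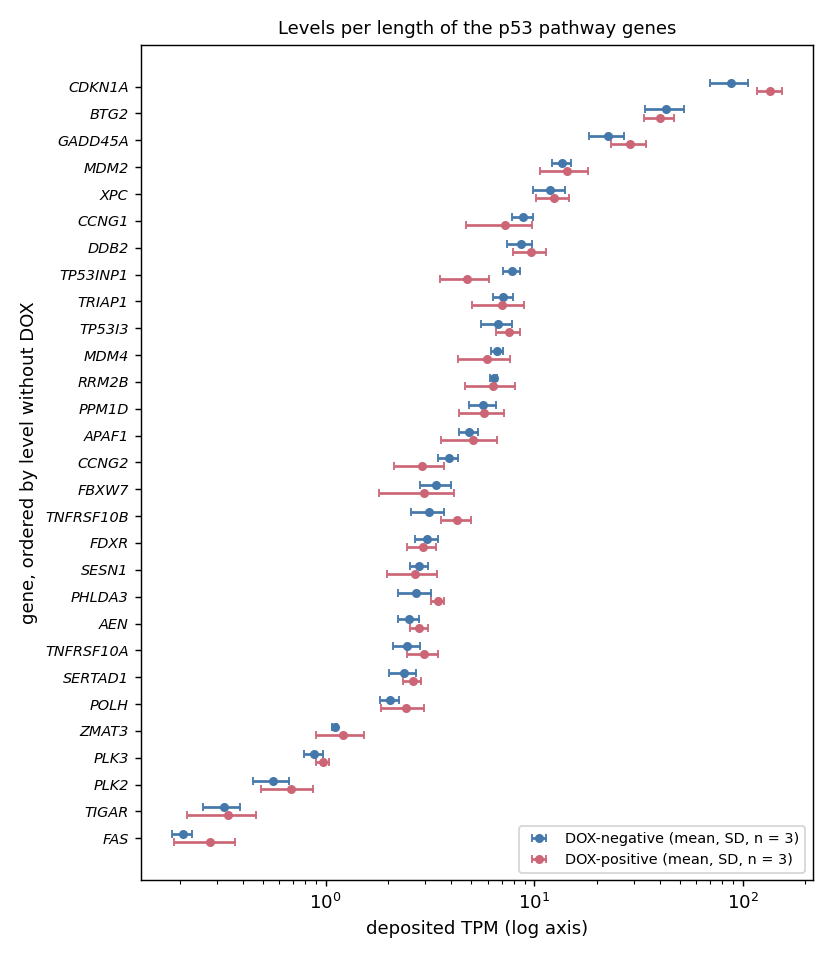
Mean level of members in TPM (logarithmic axis) without and with DOX, ordered by level. Points are means over 3 libraries and bars are SD. CDKN1A is highest at 88.1 TPM without DOX, and the SD bars of most members without and with DOX overlap.

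Other genes of the pathway were taken from 5 lists. Of 26 members of the p53 family and its upstream regulators, 25 were tested and none was called by edgeR, where 3 were higher and 1 lower at an unadjusted p under 0.05 (21.1% of all genes in either direction), limma-voom called 0 and DESeq2 called 2 higher. TP73, a p53 relative that binds the same elements, stood at 16.4 ± 3.16 TPM without DOX (SD, n = 3). TP73 had 176, 172 and 153 CPM without DOX and 192, 223 and 203 with DOX. Its groups did not overlap, and its log2 fold change of 0.30 ± 0.08 (SE) was not called (edgeR adjusted p = 0.057). TP63, with a mean of 28 counts per library and 0.29 to 0.64 CPM, did not pass the test either (log2 fold change -0.08, edgeR adjusted p = 0.92).

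Among 46 other genes that p53 induces, 43 were tested, 6 were called higher and none was called lower, beside 2.91% and 1.96% of all genes. The median log2 fold change of the 43 was 0.07. By the same edgeR test 13 were higher and 3 lower at an unadjusted p under 0.05, beside 11.6% and 9.53% of all genes, and DESeq2 and limma-voom called none lower. LIF, a cytokine, rose by 0.91 on the log2 scale (edgeR adjusted p = 0.0078) from 3.33 to 3.68 CPM without DOX to 5.40 to 7.85 with DOX. GDF15, a secreted stress cytokine, rose by 0.76 (edgeR adjusted p = 0.0031), from 112 to 134 CPM without DOX to 181 to 235 with DOX. DRAM1, a lysosomal protein of autophagy, rose by 0.66 (edgeR adjusted p = 0.033), SESN2, the sestrin related to SESN1, by 0.54 (edgeR adjusted p = 0.0092), RAP2B, a small GTPase, by 0.47 (edgeR adjusted p = 0.019), and SFN, which keeps mitotic kinases in the cytoplasm, by 0.38 (edgeR adjusted p = 0.031). Of the 43 genes, 12 had groups that did not overlap and were higher with DOX, the 6 called genes among them. Another 5 had groups that did not overlap and were lower. Over all genes tested these shares were 14.8% and 13.3%. With 1 library left out, 1 to 6 genes of the list were called higher, 1 without DOX-negative replicate 3 and 2 without DOX-negative replicate 2. Without DOX-positive replicate 2, 1 gene of the list was called lower, in a fit that called 4.8% of all genes in either direction.

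Genes that p21 represses through the DREAM complex are read here because CDKN1A was called higher. All 16 on the list, which holds mitotic genes such as CCNB1, PLK1 and BIRC5, were tested and none was called by edgeR, DESeq2 or limma-voom, while 2 were lower at an unadjusted p under 0.05 in edgeR, beside 9.53% of all genes. All 16 log2 fold changes were below 0, from -0.23 to -0.01 with a median of -0.14, where 49.9% of all genes tested had changes below 0. Only CCNB1, the mitotic cyclin B, had groups that did not overlap, with a log2 fold change of -0.22 (edgeR adjusted p = 0.16). These 16 genes rise and fall together through the cell cycle, so their signs are not independent of each other. With 1 library left out, 14 to 16 were below 0, with 14 without DOX-negative replicate 2, DOX-positive replicate 2 or DOX-positive replicate 3. Without DOX-positive replicate 1, 1 gene of the list was called lower, in a fit that called 6.02% of all genes in either direction.

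TP53INP1 acts in autophagy, so 22 other autophagy genes were read, and all were tested. Of these, 2 were called higher and 1 lower, beside 2.91% and 1.96% of all genes. MAP1LC3B, the LC3 protein of the autophagosome, was called lower, at 36.1, 37.1 and 37.4 CPM without DOX and 30.0, 26.2 and 29.9 with DOX, a log2 fold change of -0.36 (edgeR adjusted p = 0.031). OPTN, an autophagy receptor, and ATG9A, a lipid scramblase, were called higher by 0.33 (edgeR adjusted p = 0.049) and 0.31 (edgeR adjusted p = 0.0499). Under 18 other settings MAP1LC3B was called in 12, OPTN in 5 and ATG9A in 4. Without any 1 of the 3 DOX-negative libraries 0 genes of the list were called in either direction. The median of the list was 0.01.

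CCNG2 is known as a target of FOXO factors, and its regulation by p53 in these cells was not tested. Of 20 genes of that kind, all tested, 2 were called higher and 2 lower, beside 2.91% and 1.96% of all genes. FOXO1, itself a FOXO factor, fell by 0.57 on the log2 scale (edgeR adjusted p = 0.019), from 25.5, 30.6 and 27.7 CPM without DOX to 22.1, 16.6 and 17.7 with DOX. INSR, the insulin receptor, fell by 0.27 (edgeR adjusted p = 0.041). PDK4, a kinase that restrains pyruvate dehydrogenase, rose by 0.77 (edgeR adjusted p = 0.048), and IRS2, an adaptor of insulin signaling, rose by 0.35 (edgeR adjusted p = 0.033). Under 18 other settings FOXO1 was called in 13, IRS2 in 11, INSR in 9 and PDK4 in 6, and 0 genes of the list were called without DOX-negative replicate 2 or DOX-negative replicate 3. The median of the list was 0.01.

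**Figure D5:**
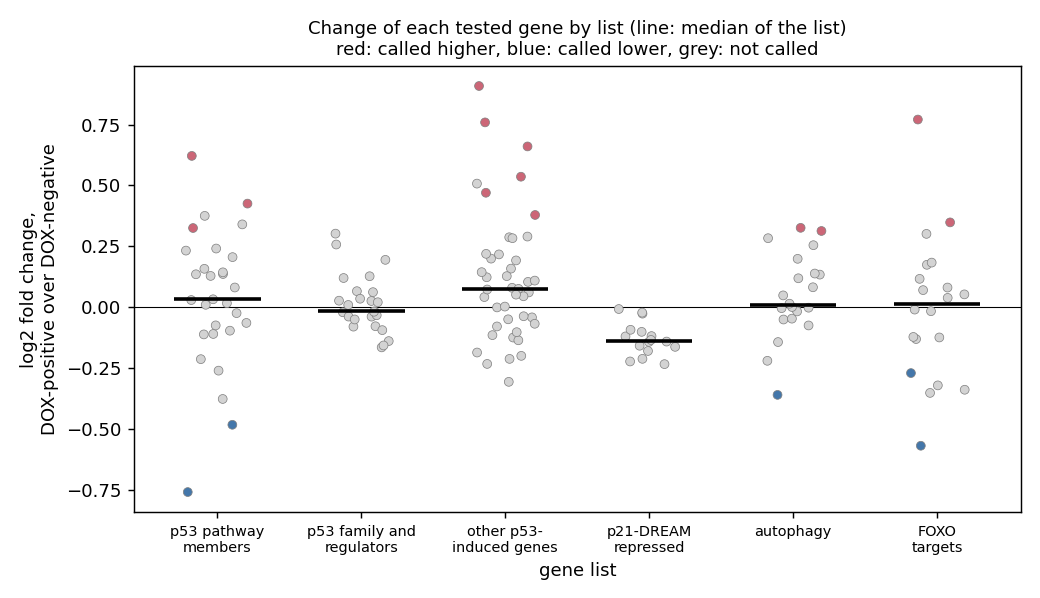
Fitted log2 fold change, DOX-positive over DOX-negative (axis with 0 marked), of every gene tested in the 31-member list and in the lists of p53 regulators, other p53-induced genes, p21-DREAM repressed genes, autophagy genes and FOXO targets. Each point is a gene and the line is the median of its list. The medians lie between -0.14 for the p21-DREAM repressed genes and 0.07 for the other p53-induced genes.

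Some reads may be shared with neighbors or copies. The exons of 8 members overlap those of another counted gene in GENCODE v29, always on the opposite strand, by at most 9.48% of the member's exon bases (APAF1 with ANKS1B). For FAS with ACTA2 the share was 8.93% and for CDKN1A with DINOL 4.79%. Without a stated strand setting such reads cannot be assigned. DINOL had a mean of 4.17 counts per library. ACTA2 had 0.38, 0.37 and 0.29 CPM without DOX and 0.67, 0.60 and 0.62 with DOX. Its log2 fold change of 0.85 was not called (edgeR adjusted p = 0.066) and had the direction of FAS. The part of shared reads in the values of FAS was not tested. A pseudogene bears the name of 6 members, MDM4, CCNG1, CCNG2, GADD45A, POLH and TRIAP1, and the splitting of reads between these copies was not tested.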

How the data were processed

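RNA from 6 cultures of H660 cells was sequenced. The authors deposited raw gene counts (whole numbers, not normalized) and TPM values per library, made from reads aligned with STAR to GRCh38 (hg38) per the submitters' processing notes, which also name DESeq2. The counter and its strand setting are not given in the sources used here. Every column was matched to a sample (0 unmatched), and 0 rows lacked a gene name.

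Counts were filtered with filterByExpr, scaled by TMM and fitted in edgeR 4.0.16 (R 4.3.3) with the robust quasi-likelihood test of 3 DOX-positive against 3 DOX-negative libraries, with no covariate and Benjamini-Hochberg adjustment over all 17026 genes at 0.05. CPM are counts scaled to the library total times its TMM factor, and ± on a log2 fold change is the standard error of the fit. The biological coefficient of variation was 9.58%. The script was tested on simulated data. No pair of libraries agreed within sampling noise. Alternatives were other scalings and filters, a replicate block, DESeq2 1.42.0, limma-voom and limma-trend on log2(TPM + 1) or log2(TPM + 0.1) (limma 3.58.1), and each library left out in turn, 18 in all.

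The members and lists were chosen with earlier results of these data known. All 31 members were named. From each pathway list up to 6 called genes with the largest absolute change were named, and TP63, TP73 and MUC1 in any case. Another gene that the rule names is not reported here. Of the cell type markers, those called or without a count were named, and COL1A2 as the tested fibroblast marker with a change below 0. CHGB was named as a neuroendocrine marker with a change above 0 and groups that did not overlap. CCNB1, PLK1 and BIRC5 were named as examples after their values were seen. Promoter windows came from RefSeq for GRCh38.p14 and exon overlaps from GENCODE v29.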

Additional observations from a re-analysis of the deposited data

How the results depend on the processing

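TP53INP1 was chosen for its fall in the same libraries, so its calls under the alternatives are a description and not support. All 18 alternatives gave TP53INP1 a log2 fold change below 0, from -0.80 to -0.63, and it was called in 15. The exceptions were the 3 limma fits on TPM, at -0.63 for log2(TPM + 1) with and without a filter at a mean of 1 TPM and at -0.73 for log2(TPM + 0.1). Those fits called 30 genes with log2(TPM + 1) and 35 with log2(TPM + 0.1) when filtered, and 0 unfiltered (1248 at an unadjusted p under 0.05), where MUC1 was at -1.22 (limma adjusted p = 0.29). All 3 called 0 members, 0 higher and 0 lower. In TPM, 25.7% to 34.5% of each library lay in 1 small RNA, and the cause of the lost calls was not tested. The higher and lower calls were 13 and 17, then 16 and 19, in the filtered fits, against 496 and 333 in edgeR. DESeq2 called 1355 genes. Without scaling factors 3 members were called, 1 of them lower, and limma-voom called 1 lower.

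With 1 library left out, 58 to 1035 genes were called, 58 without DOX-negative replicate 3 and 127 without DOX-negative replicate 2, both fits in which TP53INP1 was the 1 member called, and 375 without DOX-positive replicate 3. Members called ranged from 1 to 7, with 1 to 3 lower and 0 to 4 higher, and the median of the members from -0.02 to 0.07. These fits have fewer libraries. Of the 28 other members' changes, 324 moved by less than the replicate SD and 4 by more under alternatives with all 6 libraries. All 168 moved by less with 1 library left out, but that outcome was nearly fixed in advance. Leaving out 1 of 3 libraries shifts a group mean by less than this SD, so nothing is read from that count.

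Replicate numbers did not pair the libraries, since deviations of same-numbered libraries correlated at -0.54, 0.02 and -0.10 over 14587 genes. With the replicate block 998 genes were called and the same 5 members.

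With 3 libraries per group, a member's change had an SE of 0.07 to 0.16 on the log2 scale. Of the 24 members not called, 15 had absolute changes under 0.15. The log2(TPM + 1) scale understates the change of low genes such as FAS, 0.08 there against 0.38 in edgeR.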
